A study of Homo sapiens with 12 samples.

Results

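Collagen chain genes were followed across 4 culture conditions of 1 human ovarian carcinoma cell line. The members are the protein-coding genes whose GENCODE 29 symbol is COL, a number, A and a number, which gave 44 of the 58735 genes in the count table (19951 of them protein-coding). Of the 44, 21 had a mean of at least 1 CPM (counts scaled to the size of the library, the unit of level used throughout) in any condition and are described here, 18 of them in all 4 conditions. The cells were FDX2-iKO ES2 cells, in which the endogenous FDX2 gene, coding for a mitochondrial ferredoxin of iron-sulfur cluster synthesis, was knocked out by CRISPR-Cas9. They live on an editing-resistant, HA-tagged FDX2 that a TetON promoter expresses only while doxycycline (Doxy) is present. All 4 conditions carry the knockout and the transgene. The condition "20% O2 + Doxy" kept FDX2 on for 6 days in ambient oxygen, and "20% O2 wo Doxy" lost FDX2 over the same time. The conditions "3% O2 + Doxy" and "3% O2 wo Doxy" had 4 days at 20% O2 followed by 3 days at 3% O2. Each condition had 3 libraries, which the submitters describe as biological replicates. The study routinely used 1 clone, removal of Doxy itself cannot be told apart from FDX2 loss, and the time in culture differs with the oxygen level.

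Collagens are extracellular proteins built from chains that wind around each other in a triple helix, with glycine at regularly spaced positions and many hydroxylated prolines. Fibrillar collagens such as types I and V form the fibrils of connective tissue, type IV chains form the network of basement membranes, type VI forms beaded microfibrils, and fibril-associated collagens with interrupted helices (FACIT) sit on the surface of fibrils. Transmembrane collagens anchor cells to the matrix. Chains are hydroxylated in the endoplasmic reticulum by enzymes that need oxygen, iron and 2-oxoglutarate, and they are then secreted, trimmed and crosslinked.

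Library totals lay between 24958386 and 34313637 counts. FDX2 itself was too low to be tested (2 to 13 counts in each library), and 70.9% of its exon sequence overlaps other genes, so its loss could not be checked on these counts. In 3 libraries, 20% O2 + Doxy replicate 1, 3% O2 + Doxy replicate 3 and 3% O2 wo Doxy replicate 2, genes of high GC content stood 0.407, 0.459 and 0.421 (log2) above genes of low GC content relative to the average library, against -0.354 to 0.129 in the other 9. This touches the collagen genes directly, because the transcripts of the 26 tested members had a median GC content of 57.4% against 47.7% over all tested genes. The counts of collagen genes called in each comparison are therefore also given after a correction for GC content and without these 3 libraries, an alternative chosen after the data were seen. The share of all genes called was determined with and without GC correction, but not for the fit that leaves out these 3 libraries. Of the 11 epithelial and ovarian carcinoma markers, KRT7, KRT8, KRT18 and PAX8 were at 1 CPM or more in every library, while EPCAM, CDH1 and KRT19 had 3 counts or fewer in each library and MUC16 had none. All 3 mesenchymal markers (VIM, CDH2, ZEB1) were expressed. Of the 8 fibroblast and mural markers LUM had no count, DCN at most 2 and THY1 at most 6 counts in a library. The summed level of that list was 9.05 to 10.1 CPM in 20% O2 + Doxy, 20.0 to 21.3 in 20% O2 wo Doxy, 9.94 to 10.6 in 3% O2 + Doxy and 15.4 to 17.7 in 3% O2 wo Doxy, mostly from PDGFRA and RGS5. Of the 4 endothelial markers CDH5 and KDR were expressed and PECAM1 and VWF had at most 6 counts. None of the 5 blood markers was at 1 CPM in every library, and PTPRC had at most 2 counts. Their summed levels over the 12 libraries were 24.0 to 54.4 CPM for the endothelial and 0.863 to 2.54 CPM for the blood list. The part of these markers in the collagen results was not tested.

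The start sites of type IV collagen genes lie in head-to-head pairs, so that a pair shares the stretch between them. COL4A1 and COL4A2 start 126 bases apart on chromosome 13 and COL4A6 and COL4A5 start 379 bases apart on the X chromosome, counted between the furthest upstream start site of each gene in RefSeq. The first pair fell together and the second rose together with FDX2 loss at 20% O2. Among the described genes, COL24A1 had the highest and COL17A1 the lowest log2 fold change in that comparison. COL24A1 is described only through 20% O2 wo Doxy, a condition of this comparison, so its rank is not independent of that choice. Stretches upstream of a RefSeq start site of COL4A5, COL24A1 and COL17A1 are shown because of these changes. They come from RefSeq promoter windows of GRCh38.p14 (250 bases before to 50 after a start site). Each is the longest run of bases before the start site that GENCODE 29 does not place in an exon. Such exons fill the stretch between COL4A1 and COL4A2. The stretches are chrX:108439588-108439837 on the plus strand, chr1:86156773-86156896 on the minus strand and chr10:104085958-104086130 on the minus strand. That of COL24A1 lies before the RefSeq start site but within the gene as GENCODE 29 places it, which reaches to base 86156943. That of COL17A1 ends where the gene begins in GENCODE 29 (base 104085957) and does not reach the RefSeq start site. Capitals mark matches on either strand to any of 4 motifs. The CCAAT box was searched as CCAAT, and the TATA box as TATAA. The letters GGGCGG stood for the GC box. For the core of a hypoxia response element both ACGTG and, as the other form, GCGTG counted.
COL4A5: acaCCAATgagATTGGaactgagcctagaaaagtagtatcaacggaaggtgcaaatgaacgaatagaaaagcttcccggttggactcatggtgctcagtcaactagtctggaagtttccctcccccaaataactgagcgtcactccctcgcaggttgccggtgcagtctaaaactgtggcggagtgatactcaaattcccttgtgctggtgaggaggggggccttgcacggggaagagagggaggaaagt
COL24A1: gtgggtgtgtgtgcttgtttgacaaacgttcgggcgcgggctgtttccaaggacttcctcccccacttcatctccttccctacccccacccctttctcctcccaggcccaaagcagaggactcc
COL17A1: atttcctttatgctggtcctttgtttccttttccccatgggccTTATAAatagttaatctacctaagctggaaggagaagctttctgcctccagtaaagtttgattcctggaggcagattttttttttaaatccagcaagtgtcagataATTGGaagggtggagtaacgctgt
The COL4A5 stretch held 2 CCAAT boxes in opposite orientation. The COL17A1 stretch held the letters of a TATA box, read as 2 overlapping matches because they fit both strands, and 1 CCAAT box. The distance of a match from a start site was not used in the search. None of the motifs was in the COL24A1 stretch, which says only that these letters are not there. RefSeq windows were found for 32 of the 44 members (44 windows) and 17 of the 21 described. Among the 44 windows, 24 held a GC box against 45.0% of all 35116 windows, 14 a CCAAT box against 34.6%, 9 a TATA box against 20.4% and 19 a hypoxia response core against 48.4%. These matches are descriptions and not binding sites.

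The 21 described genes covered most classes of collagen, and the type I chain COL1A1 stood far above the rest. COL1A1 (ENSG00000108821, chr17:50183289-50201632) made up 34.8% to 43.2% of the summed collagen level in each library. Per kilobase of exon its mean over the 12 libraries was 161 CPM, followed by the beaded filament chains COL6A2 with 69.7 and COL6A1 with 55.8, the FACIT COL12A1 with 36.8, COL6A3 with 27.2 and the transmembrane COL13A1 with 22.8. The type IV chain COL4A2 followed with 12.9, and every other member was at 6.27 CPM per kilobase or less. Among the fibrillar genes, COL5A1, COL5A2 and COL27A1 were expressed besides COL1A1, COL11A2 and COL24A1 were near 1 CPM in at least 1 condition, and COL2A1 and COL3A1 had at most 2 counts in any library. COL1A2 (ENSG00000164692, chr7:94394561-94431232), whose chain normally joins that of COL1A1 in the type I helix, had 4 to 23 counts per library. Of the 23 members below 1 CPM in every condition, 5 passed the filter on low counts and were tested (COL1A2, COL9A2, COL28A1, COL4A4, COL8A1). The other 18 had at most 14 counts in a library, and 3 of them (COL9A1, COL22A1, COL26A1) had none. COL18A1 and COL9A3, at 9.29 to 23.6 and 11.5 to 14.6 CPM over the 12 libraries, were called in none of the 5 edgeR comparisons, and 16.4% of the exonic bases of COL18A1 overlap SLC19A1, so its counts are uncertain.

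**Figure D1:**
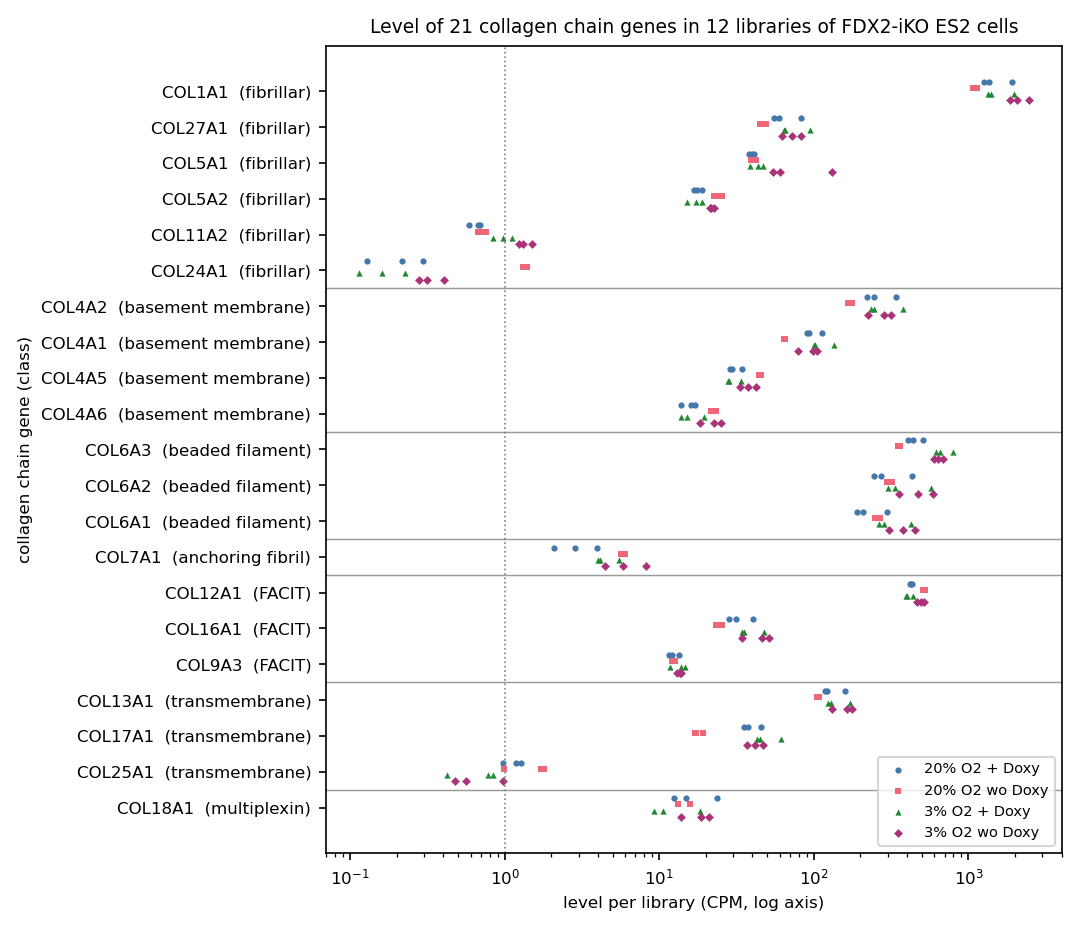
Level of the 21 described collagen chain genes in each of the 12 libraries, in CPM on a log axis, with colours and symbols for the 4 conditions, lines between classes and a dotted line at 1 CPM. COL1A1 is the highest gene in CPM, and COL24A1 passes 1 CPM only in 20% O2 wo Doxy, where its 3 libraries sit between 1.32 and 1.39.

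The summed level of all 44 genes was 3714 ± 706 CPM (SD, n = 3) in 20% O2 + Doxy, 3152 ± 70.6 in 20% O2 wo Doxy, 4242 ± 871 in 3% O2 + Doxy and 4994 ± 643 in 3% O2 wo Doxy. In each of the 3 conditions that hold a library of high GC values, that library had the highest sum: 4519 against 3419 and 3203 CPM in 20% O2 + Doxy, 5243 against 3658 and 3824 in 3% O2 + Doxy, and 5665 against 4382 and 4934 in 3% O2 wo Doxy. The libraries of 20% O2 wo Doxy, which held none, lay between 3070 and 3194 CPM.

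FDX2 loss at 20% O2 was compared first, since the study asks what the loss of this ferredoxin does to cells in ambient oxygen. The main type IV chains COL4A1 and COL4A2, the hemidesmosome collagen COL17A1, the microfibril chain COL6A3 and the low COL1A2 fell, whereas COL24A1, the anchoring fibril collagen COL7A1, the other type IV pair COL4A5 and COL4A6, the type V chain COL5A2 and the FACIT COL12A1 rose. That is 6 higher and 5 lower of the 26 tested members by edgeR's quasi-likelihood test (Benjamini-Hochberg adjusted p under 0.05), a share of 23.1% and 19.2% against a background of 17.6% and 17.7% of all 16891 tested genes (35.3% in either direction). The median log2 fold change of the 26 members was -0.14, against 0.01 over all tested genes, and it turned to 0.17 (0.07 over all genes) with GC correction. The counts were 8 higher and 8 lower with GC correction (background 26.1% and 20.3%) and 7 and 8 without the 3 libraries of high GC values. In 15 of the 26 members no library of one condition lay within the range of the other, against 52.3% of all genes.

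COL24A1 (ENSG00000171502, chr1:85729233-86156943), a minor fibrillar collagen, had 0.128, 0.217 and 0.294 CPM in the 3 libraries of 20% O2 + Doxy and 1.32, 1.39 and 1.33 CPM in those of 20% O2 wo Doxy. In counts these are 4, 6 and 10 against 41, 44 and 41, so the 2 conditions lay far apart although the gene is rare. COL24A1 is among the described genes only through 20% O2 wo Doxy, where its mean was 1.35 CPM. Its log2 fold change was 2.63 ± 0.32 (SE), or 6.19-fold (edgeR adjusted p = 9.3e-05). COL7A1 (ENSG00000114270, chr3:48564073-48595267), which forms the fibrils that fasten epithelium to the stroma, had 3.93, 2.86 and 2.09 CPM with Doxy and 5.87, 5.97 and 5.62 without. All libraries wo Doxy were higher, with a log2 fold change of 0.98 ± 0.25 (edgeR adjusted p = 0.012). COL5A2 (ENSG00000204262, chr2:189031896-189225312), a chain of the type V collagen that starts and limits fibrils, had 18.8, 17.6 and 16.7 CPM with Doxy and 24.7, 25.6 and 22.5 without. Its log2 fold change was 0.45 ± 0.08 (edgeR adjusted p = 0.0018), and its partner chain COL5A1 was at 38.2 to 41.2 CPM with and 38.9 to 41.9 without Doxy (log2 fold change 0.02 ± 0.26, edgeR adjusted p = 0.97). COL12A1 (ENSG00000111799, chr6:75084326-75206051), which links fibrils to other matrix, had 432, 427 and 420 CPM with Doxy and 505, 512 and 520 without. These tight groups gave a log2 fold change of 0.27 ± 0.05 (edgeR adjusted p = 0.0024).

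COL17A1 (ENSG00000065618, chr10:104031286-104085957), the transmembrane collagen of hemidesmosomes, had 45.6, 37.6 and 35.4 CPM in 20% O2 + Doxy and 17.04, 19.0 and 17.4 CPM in 20% O2 wo Doxy. No library overlapped, and the level fell by 1.15 on the log2 scale, with an SE of 0.15 (2.22-fold lower, edgeR adjusted p = 0.00014). The other transmembrane collagens did not pass the test, with log2 fold changes of -0.31 for COL13A1 and 0.40 for COL25A1. COL6A3 (ENSG00000163359, chr2:237324003-237414375) had 508, 435 and 409 CPM with Doxy and 362, 361 and 349 without, a fall of 0.33 with an SE of 0.10 (edgeR adjusted p = 0.023). Without 20% O2 + Doxy replicate 1 the fall was 0.25 and the call was lost (edgeR adjusted p = 0.057). Its partners COL6A1 (ENSG00000142156, chr21:45981737-46005050) and COL6A2 (ENSG00000142173, chr21:46098097-46132849) had log2 fold changes of 0.16 ± 0.21 and -0.04 ± 0.27, and neither passed the test. The library of high GC values stood apart in both, with 433 CPM of COL6A2 and 299 CPM of COL6A1 in that library against 246 to 271 and 189 to 209 CPM in the other libraries with Doxy. Wo Doxy the 3 libraries lay at 295 to 318 CPM for COL6A2 and 249 to 267 CPM for COL6A1. With GC correction both were called higher, by 0.33 (edgeR adjusted p = 0.0076) and 0.45 (3.2e-05).

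**Figure D2:**
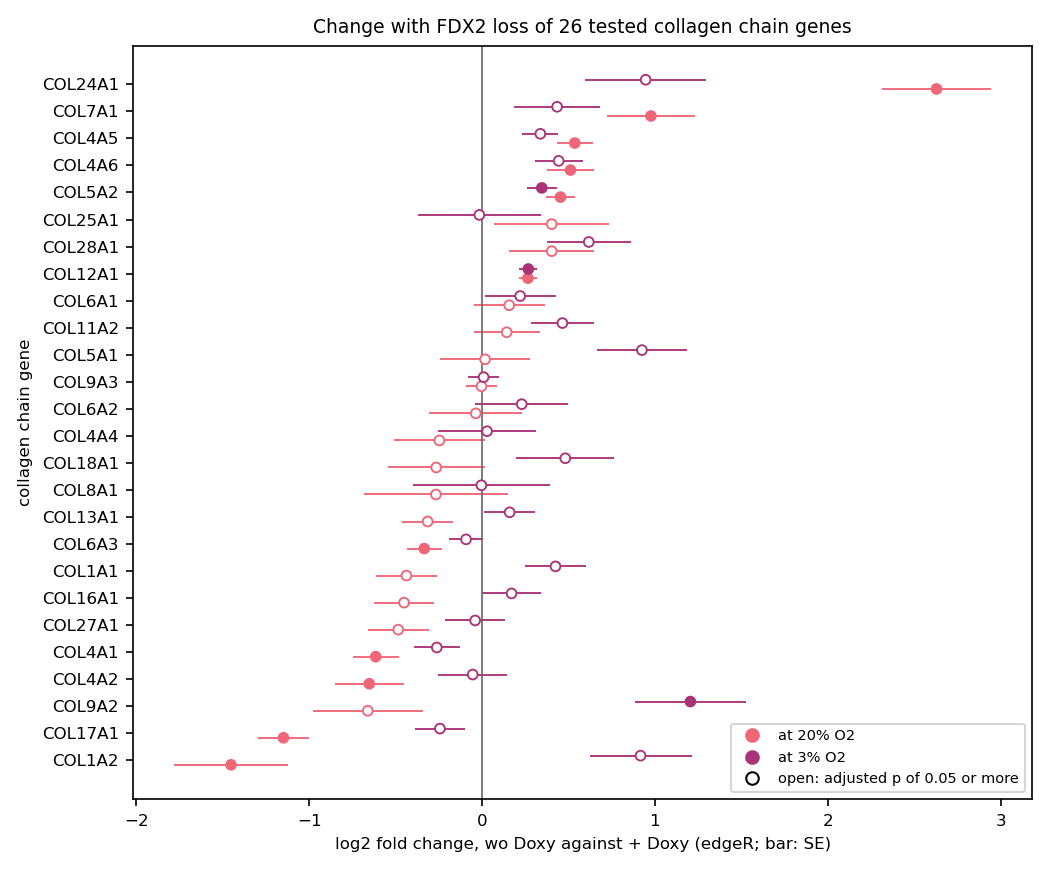
Log2 fold change with FDX2 loss (wo Doxy against + Doxy) of the 26 tested collagen chain genes at 20% and at 3% O2, with the standard error of edgeR's model as bars and filled points for an adjusted p under 0.05. At 20% O2 the values run from -1.45 for COL1A2 to 2.63 for COL24A1, and 6 genes are called higher and 5 lower, while at 3% O2 only 3 points are filled.

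The type IV genes split by pair. COL4A1 (ENSG00000187498, chr13:110148963-110307233) had 113, 92.6 and 90.5 CPM in 20% O2 + Doxy and 63.6, 64.6 and 64.9 CPM in 20% O2 wo Doxy, a fall of 0.62 with an SE of 0.13 (edgeR adjusted p = 0.0043). COL4A2 (ENSG00000134871, chr13:110305812-110513209) had 338, 245 and 221 CPM with and 175, 171 and 165 CPM without Doxy. Both genes of this pair, which together make the common network of basement membranes, were lower in every library wo Doxy. The fall of COL4A2 was 0.65 with an SE of 0.20 (edgeR adjusted p = 0.026). Its call was lost without 20% O2 + Doxy replicate 1 and without each of the 3 libraries of 20% O2 wo Doxy, with log2 fold changes of -0.46, -0.67, -0.67 and -0.65 and adjusted p of 0.084, 0.053, 0.052 and 0.061, but not with GC correction (-0.39, edgeR adjusted p = 0.00048).

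COL4A5 (ENSG00000188153, chrX:108439844-108697545) had 34.1, 28.5 and 29.7 CPM with and 43.97, 44.8 and 45.2 CPM without Doxy at 20% O2. COL4A6 (ENSG00000197565, chrX:108155607-108439497) had 17.04, 15.9 and 13.8 CPM with and 23.3, 21.4 and 21.9 CPM without. This pair, whose chains form the less common networks of kidney, skin and smooth muscle, was higher in every library wo Doxy. The log2 fold changes were 0.54 ± 0.10 for COL4A5 (edgeR adjusted p = 0.0023) and 0.51 ± 0.14 for COL4A6 (0.014), and that of COL4A6 was 0.43 without 20% O2 + Doxy replicate 3, where the call was lost (edgeR adjusted p = 0.057). COL4A3 had at most 4 counts in a library and COL4A4, which was tested, had a log2 fold change of -0.25 ± 0.26. Within each pair the ratio of levels per kilobase was kept at 20% O2. COL4A2 to COL4A1 was 2.06 ± 0.21 with and 2.02 ± 0.08 without Doxy (SD, n = 3), and COL4A5 to COL4A6 was 1.55 ± 0.14 and 1.58 ± 0.09. Between the pairs the ratio moved at 20% O2, with COL4A1 to COL4A5 at 2.66, 2.61 and 2.45 in the libraries with Doxy and 1.16, 1.16 and 1.16 in those without. At 3% O2, COL4A2 to COL4A1 was 1.91 ± 0.19 with and 2.22 ± 0.08 without Doxy, and these libraries did not overlap. COL4A5 to COL4A6 was 1.46 ± 0.11 and 1.35 ± 0.06 there.

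COL1A1 was not called at 20% O2. It had 1914, 1353 and 1262 CPM with and 1141, 1134 and 1069 CPM without Doxy, so the conditions did not overlap, but the first of these libraries, the one of high GC values, stood well above the other two with Doxy. The log2 fold change was -0.44 ± 0.18 (edgeR adjusted p = 0.077). It was called lower with GC correction (-0.19, edgeR adjusted p = 0.0048) and without the 3 libraries of high GC values (-0.24, 0.0046). COL1A2 has less than 1 CPM and was named after its values were seen. Its counts were 17, 8 and 14 with and 4, 6 and 4 without Doxy (0.543, 0.290 and 0.411 against 0.128, 0.190 and 0.130 CPM). This is a fall of 1.45 with an SE of 0.33 (2.74-fold lower, edgeR adjusted p = 0.0056) at a level where single counts matter. The level of COL1A1 per kilobase was 3485 to 5303 times that of COL1A2 in the libraries with Doxy and 6793 to 10094 times in those without.

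FDX2 loss at 3% O2 asks the same in low oxygen, and few collagen genes passed the test. COL12A1, COL5A2 and the FACIT COL9A2 rose and no member fell. These are 3 higher and 0 lower of 26, or 11.5% higher against a background of 4.20% of all genes, with 3.11% of all genes lower and 7.31% called in all. At an unadjusted p under 0.05 there were 11 higher and 0 lower, and DESeq2 called 5 higher and 0 lower. No share of all genes was determined for these counts, so how unusual they are cannot be read from them. The counts became 7 higher and 2 lower with GC correction (background 10.6% and 8.66%), with COL4A1 at -0.28 and COL17A1 at -0.26 the lower ones, and 7 and 0 without the 3 libraries of high GC values. The members' median was 0.25, against 0.04 over all genes, and 8 of the 26 members had no overlap between conditions, against 24.6% of all genes.

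COL12A1 had 398, 392 and 436 CPM in 3% O2 + Doxy and 465, 515 and 495 CPM in 3% O2 wo Doxy, a log2 fold change of 0.27 ± 0.05 (edgeR adjusted p = 0.012). COL5A2 had 15.2, 17.2 and 19.0 CPM with and 21.3, 22.4 and 21.5 CPM without Doxy, a log2 fold change of 0.35 ± 0.09 (edgeR adjusted p = 0.034). In both genes every library wo Doxy was above every library with Doxy, as at 20% O2. COL9A2, a chain of cartilage type IX collagen, is below 1 CPM and was named after its values were seen: it had 11, 10 and 13 counts with and 25, 27 and 20 without Doxy, a log2 fold change of 1.21 ± 0.32 (edgeR adjusted p = 0.047). These calls were fragile. That of COL12A1 was lost without 3% O2 + Doxy replicate 1 or 2 or 3% O2 wo Doxy replicate 2 (log2 fold change 0.25, 0.23 and 0.23), that of COL5A2 without each library of this comparison other than 3% O2 + Doxy replicate 3 (0.26 to 0.36), and that of COL9A2 without each library other than 3% O2 wo Doxy replicate 3 (1.06 to 1.27). All 3 were also lost when only the 6 libraries compared were fitted, with log2 fold changes of 0.24, 0.32 and 1.18 and adjusted p of 0.11, 0.12 and 0.11.

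COL24A1 had 7, 3 and 5 counts with and 10, 7 and 10 without Doxy at 3% O2, which did not pass the test (log2 fold change 0.95 ± 0.35, edgeR adjusted p = 0.18). COL6A2 had 302, 337 and 570 CPM with and 355, 589 and 474 CPM without Doxy (0.23 ± 0.27, edgeR adjusted p = 0.65), and COL6A1 had 264, 285 and 423 against 307, 448 and 377 CPM (0.22 ± 0.21, 0.56). In both the highest library of each condition was the one of high GC values. COL5A1 did not pass the test at 3% O2 (log2 fold change 0.92 ± 0.26, edgeR adjusted p = 0.058). It had 46.7, 38.5 and 43.4 CPM with and 130, 59.999 and 54.1 CPM without Doxy, so that 1 library, 3% O2 wo Doxy replicate 1, stood above the other two. COL4A5 and COL4A6 had log2 fold changes of 0.34 and 0.44 (edgeR adjusted p = 0.078 and 0.079). Both were called higher with GC correction (edgeR adjusted p = 0.0082 and 0.0056) and without the 3 libraries of high GC values (0.0086 and 0.018). COL1A1 had 1342, 1409 and 1985 CPM with and 1844, 2447 and 2066 CPM without Doxy, a log2 fold change of 0.42 ± 0.18 (edgeR adjusted p = 0.18). The libraries overlapped, and the highest with Doxy was replicate 3, a library of high GC values. With GC correction COL1A1 was called higher by 0.36 (edgeR adjusted p = 0.00035) and without the 3 libraries by 0.49 (0.0017).

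Low oxygen in cells that kept FDX2 gave 1 call among the 26 tested collagen genes, and 7 with GC correction. Without the correction only COL6A3 passed the test, with 508, 435 and 409 CPM at 20% O2 and 614, 652 and 790 CPM at 3% O2. All libraries at 3% O2 were higher, with a log2 fold change of 0.60 ± 0.10 (1.52-fold, edgeR adjusted p = 0.0085). This is 1 higher and 0 lower of 26, or 3.85% against a background of 1.63% higher and 0.385% lower (2.02% in all) over all genes. At an unadjusted p under 0.05 there were 5 higher and 1 lower, and DESeq2 called 1 higher and 0 lower, with no share of all genes determined. The call of COL6A3 was lost without 20% O2 + Doxy replicate 2 (0.58, edgeR adjusted p = 0.059) and when only the 6 libraries with Doxy were fitted (0.60, 0.096). With GC correction 7 members were called higher and none lower (background 5.18% and 2.31%), among them COL6A1 (0.49, edgeR adjusted p = 0.00018), COL6A2 (0.38, 0.022) and COL7A1 (0.66, 0.0078). Without the 3 libraries of high GC values 2 were called higher, COL6A3 and COL6A1. The median of the members was 0.10 against -0.0045 over all genes, and 6 of the 26 had no overlap between conditions, against 15.4% of all genes.

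Low oxygen in cells that had lost FDX2 brought the largest number of higher calls among the collagen genes. COL1A1, the type V chain COL5A1, the FACIT COL16A1, the type IV pair COL4A1 and COL4A2, COL6A3 and the transmembrane COL17A1 and COL13A1 were among the 12 members called higher, and COL24A1 and COL25A1 were the 2 called lower. That is 46.2% and 7.69% of the 26 tested members against a background of 13.9% higher and 11.9% lower (25.8% in all). By class, 5 of 7 tested fibrillar genes, 2 of 5 type IV genes, 1 of 3 beaded filament genes, 2 of 4 FACIT genes and 2 of 3 transmembrane genes were called higher, and 1 fibrillar and 1 transmembrane gene lower. With GC correction the higher calls were 3 fibrillar, 2 type IV, 2 beaded filament, 1 FACIT and 2 transmembrane, and without the 3 libraries of high GC values 5, 2, 3, 1 and 2. In 20 of the 26 members the libraries of the conditions were fully separate, against 49.4% of all genes, and the members' median log2 fold change was 0.55 against 0.07. With GC correction the median was 0.30 and the counts were 10 higher and 4 lower (background 17.2% and 15.9%), and without the 3 libraries of high GC values they were 13 and 3. Over the 21 described genes alone the median was 0.55, and 0.17 with GC correction (0.02 over all genes), where 9 were called higher and 4 lower. This comparison shares its 20% O2 wo Doxy libraries with the comparison of FDX2 loss at 20% O2, so a low value in them enters both. In cells wo Doxy the summed endothelial markers lay between 28.7 and 29.9 CPM at 20% O2 and between 43.1 and 54.4 CPM at 3% O2. Most of this came from CDH5, whose mean went from 26.4 to 45.1 CPM, while KDR went from 2.62 to 2.89 CPM. The mesenchymal sum lay between 2185 and 2292 CPM at 20% O2 and between 2892 and 3441 CPM at 3% O2. Only VIM rose there, from a mean of 2124 to 3090 CPM, and the means of CDH2 and ZEB1 were lower at 3% O2. The part of these markers in the collagen changes was not tested.

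COL1A1 had 1141, 1134 and 1069 CPM in 20% O2 wo Doxy and 1844, 2447 and 2066 CPM in 3% O2 wo Doxy, and COL1A2 had 4, 6 and 4 counts against 13, 19 and 23. Neither gene overlapped between the conditions. The log2 fold change of COL1A1 was 0.93 ± 0.18 (1.90-fold, edgeR adjusted p = 0.0039), and 0.61 with GC correction (2.5e-06). That of COL1A2 was 2.12 ± 0.32 (edgeR adjusted p = 0.00099), at a level below 1 CPM. COL17A1 had 17.04, 19.0 and 17.4 CPM at 20% O2 and 37.0, 47.1 and 41.5 CPM at 3% O2. It was thus higher in every library at 3% O2, with a log2 fold change of 1.23 ± 0.15 (edgeR adjusted p = 0.00023), and its 3% O2 wo Doxy libraries lay in the range of 35.4 to 61.0 CPM seen with Doxy. COL16A1 (ENSG00000084636, chr1:31652247-31704319), a FACIT of skin and cartilage, had 24.3, 25.6 and 23.2 CPM at 20% O2 and 34.4, 51.4 and 46.2 CPM at 3% O2, a log2 fold change of 0.85 ± 0.18 (edgeR adjusted p = 0.0055).

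COL5A1 (ENSG00000130635, chr9:134641774-134844843) had 41.9, 39.8 and 38.9 CPM at 20% O2 and 130, 59.999 and 54.1 CPM at 3% O2, a log2 fold change of 1.02 ± 0.26 (edgeR adjusted p = 0.017). The libraries at 3% O2 were all higher but spread widely. Without 3% O2 wo Doxy replicate 1 the log2 fold change was 0.50 and still called, whereas the call was lost without each library of 20% O2 wo Doxy (0.99 to 1.04) and with GC correction (0.77, edgeR adjusted p = 0.083). COL11A2 (ENSG00000204248, chr6:33162681-33192499), a minor fibrillar chain of cartilage, had 0.674, 0.759 and 0.715 CPM at 20% O2 and 1.49, 1.23 and 1.31 CPM at 3% O2. Its log2 fold change was 0.90 ± 0.19 (edgeR adjusted p = 0.0057), and 0.56 with GC correction, where the call was lost (0.10). COL11A2 is among the described genes only through 3% O2 wo Doxy, where its mean was 1.34 CPM. COL6A3 had 362, 361 and 349 CPM at 20% O2 and 602, 689 and 637 CPM at 3% O2, a log2 fold change of 0.85 ± 0.10 (edgeR adjusted p = 0.00023). The remaining 4 described genes called higher, COL4A1, COL4A2, COL13A1 and COL27A1, had log2 fold changes of 0.55 to 0.68 (edgeR adjusted p = 0.013 to 0.029). Their calls were lost in 1, 5, 4 and 5 of the 6 fits that each left out 1 of the libraries compared. COL9A2, named after its values were seen, had 12, 14 and 16 counts at 20% O2 and 25, 27 and 20 at 3% O2 (log2 fold change 0.99 ± 0.32, edgeR adjusted p = 0.041), and its call was lost in 5 of 6 such fits (0.85 to 1.10) and with GC correction (0.60, 0.18).

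COL24A1 moved the other way, with 41, 44 and 41 counts at 20% O2 and 10, 7 and 10 at 3% O2. The libraries of 20% O2 wo Doxy are also those that placed it among the described genes. All libraries at 3% O2 were lower, and the level fell by 2.01 on the log2 scale with an SE of 0.31 (4.04-fold lower, edgeR adjusted p = 0.00098). COL25A1 (ENSG00000188517, chr4:108808725-109302752), a transmembrane collagen best known from brain, had 0.995, 1.80 and 1.72 CPM at 20% O2 and 0.564, 0.476 and 0.967 CPM at 3% O2. It fell by 1.15 with an SE of 0.35 (edgeR adjusted p = 0.032). COL25A1 is among the described genes only through the 2 conditions at 20% O2, with means of 1.14 and 1.51 CPM. Its call was lost without 20% O2 wo Doxy replicate 2 or 3 or 3% O2 wo Doxy replicate 1 or 2 (-1.06 to -0.96). In these 2 conditions same-numbered libraries deviated together, and a fit of the 6 libraries with the replicate number as a block called 13 members higher and 3 lower, while the block in all 12 libraries called 9 and 1. No share of all genes was determined for these block fits, so how unusual these counts are cannot be read from them. In the 6 libraries COL6A1 (0.52, edgeR adjusted p = 0.019) and COL6A2 (0.57, 0.039) were called higher and COL4A5 lower (-0.26, 0.047), and COL9A2 was no longer called (0.96, 0.092).

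**Figure D3:**
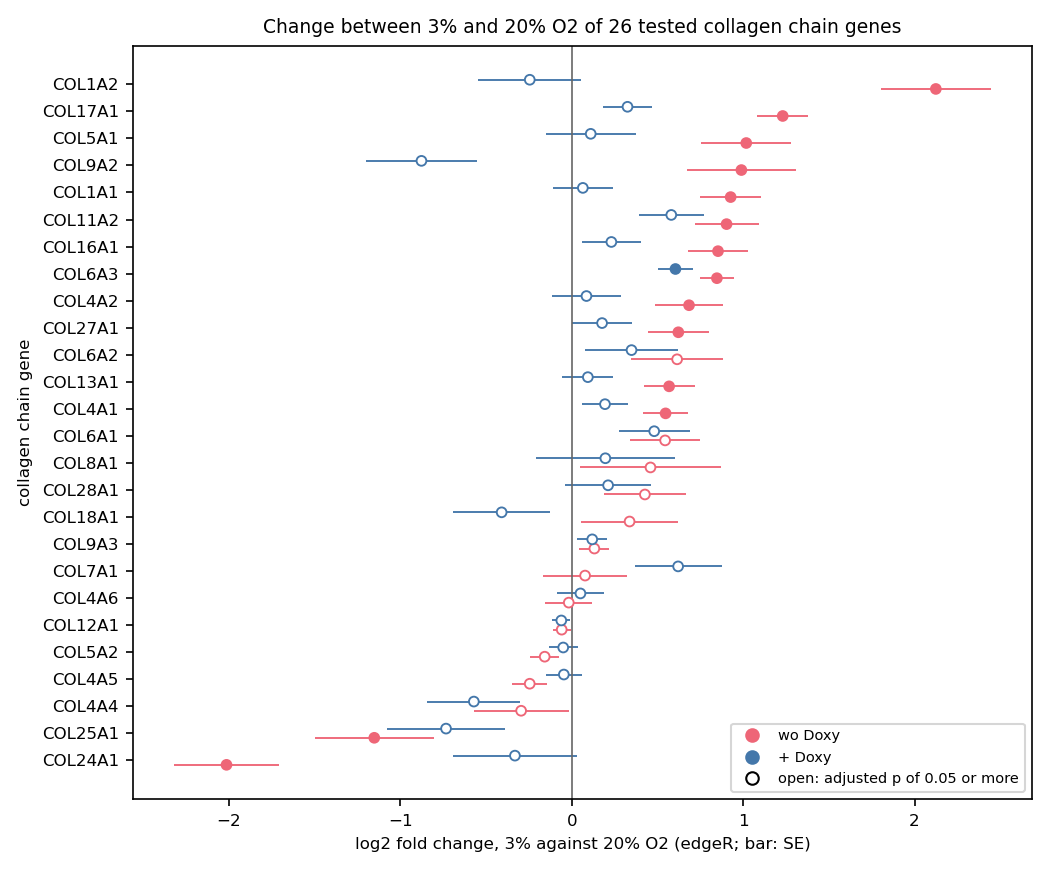
Log2 fold change between 3% and 20% O2 of the 26 tested collagen chain genes in cells with and without Doxy, with the standard error of edgeR's model as bars and filled points for an adjusted p under 0.05. In cells wo Doxy 12 genes are called higher and 2 lower, with COL1A2 at 2.12 and COL24A1 at -2.01, and in cells with Doxy only COL6A3 is filled.

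Whether the response to FDX2 loss differed with oxygen was tested as an interaction, the log2 fold change at 3% O2 minus that at 20% O2. COL17A1 was the described gene that passed: its level changed by -1.15 with FDX2 loss at 20% O2 and by -0.24 at 3% O2, a difference of 0.91 ± 0.20 (edgeR adjusted p = 0.024). COL1A2 (-1.45 and 0.92, difference 2.37 ± 0.44, edgeR adjusted p = 0.010) and COL9A2 (-0.66 and 1.21, difference 1.87 ± 0.45, 0.032) also passed, both below 1 CPM. These are 3 higher and 0 lower of 26, or 11.5%, against a background of 3.21% higher and 4.08% lower (7.29% in all). At an unadjusted p under 0.05 there were 7 higher and 1 lower, and DESeq2 called 2 higher and 0 lower, with no share of all genes determined. With GC correction the counts were 3 higher and 3 lower (background 8.73% and 9.58%), and without the 3 libraries of high GC values 6 and 2. The difference of COL1A1 was 0.86 ± 0.25 and did not pass (edgeR adjusted p = 0.064), but it did with GC correction (0.55, 0.00021) and without the 3 libraries (0.73, 0.00089). That of COL24A1 was -1.68 ± 0.48 (edgeR adjusted p = 0.060), and was called with GC correction (-1.67, 0.030) but not without the 3 libraries (-1.36, 0.16). COL7A1, at -0.54 ± 0.35 (edgeR adjusted p = 0.39), was called lower both with GC correction (-1.01, 0.0022) and without the 3 libraries (-0.92, 0.036). COL9A2 was called in neither (1.45, 0.050 and 1.72, 0.091). The call of COL17A1 was lost without 20% O2 wo Doxy replicate 1 or 3, 3% O2 + Doxy replicate 1 or 2, or 3% O2 wo Doxy replicate 2 (differences of 0.82 to 0.88, adjusted p of 0.057 to 0.061), and was kept with GC correction (0.74, edgeR adjusted p = 0.00045).

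Chains that join in 1 collagen type were set side by side per kilobase of exon in each library. COL6A1 to COL6A2 was 0.749 ± 0.047 in 20% O2 + Doxy, 0.845 ± 0.019 in 20% O2 wo Doxy, 0.827 ± 0.070 in 3% O2 + Doxy and 0.814 ± 0.053 in 3% O2 wo Doxy (SD, n = 3). COL6A1 to COL6A3 was 1.87 ± 0.25, 2.66 ± 0.05, 1.72 ± 0.22 and 2.15 ± 0.26 in the same order, and its 3 libraries of 20% O2 wo Doxy lay above those of every other condition. COL4A1 to COL4A5, which belong to different type IV pairs, was 2.58 ± 0.11, 1.16 ± 0.0041, 3.03 ± 0.17 and 2.01 ± 0.10, with no overlap between any of the 4 conditions. COL5A1 to COL5A2 was 1.496 ± 0.079, 1.11 ± 0.06, 1.69 ± 0.31 and 2.51 ± 1.36, where the last spread comes from the library with 130 CPM of COL5A1. These ratios are descriptions with no test and depend on the exon length used. With the longest coding transcript, COL4A1 to COL4A5 was 3.13, 1.41, 3.69 and 2.44.

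Genes that modify, export, trim, bind and degrade collagen were counted in 8 lists. With FDX2 loss at 20% O2, where 17.6% of all genes were called higher and 17.7% lower, 3 of 18 genes of modification and folding in the endoplasmic reticulum were called higher and 5 lower. With GC correction, where 26.1% of all genes were called higher and 20.3% lower, the counts were 6 higher and 4 lower. They were 4 and 7 without the 3 libraries of high GC values. The lysyl hydroxylase PLOD2 rose from 162 to 303 CPM (log2 fold change 0.91, edgeR adjusted p = 2.0e-05), while PLOD1 (-0.58, 0.0095) and the prolyl 3-hydroxylase P3H3 (-0.67, 0.022) fell. Of 9 tested genes of propeptide removal and crosslinking none was called higher and 3 lower (1 and 3 under both alternatives): the procollagen proteinases ADAMTS3 (-0.70, edgeR adjusted p = 2.6e-05) and ADAMTS2 (-0.63, 0.0029) and the lysyl oxidase family member LOXL2 (-0.45, 0.014). Of 6 tested collagen-degrading genes 4 were called higher and none lower (5 and 0 under both alternatives). The interstitial collagenase MMP1 went from 4547 to 9563 CPM (1.07, edgeR adjusted p = 6.4e-07), the cysteine protease CTSK changed by 1.11 (1.0e-06), and FAP, a serine protease that is also in the fibroblast marker list, by 1.99 (6.7e-05). Of 7 tested receptors ITGA10 (0.90), ITGA1 (0.87) and DDR2 (0.72) were higher and none lower, with 5 higher after GC correction and 4 without the 3 libraries. Export from the endoplasmic reticulum had 4 higher and 2 lower of 10 (5 and 4 with GC correction, 4 and 3 without the libraries), and fibril regulators 3 and 1 of 6 (4 and 1 under both). Basement membrane partners had 3 and 1 of 13 (6 and 1, then 5 and 1), and ligands and targets of TGF-beta 5 and 2 of 14 (7 and 2, then 6 and 2). Among the last, SKIL rose (0.66, edgeR adjusted p = 0.00060) and CCN2 fell (-0.48, 0.00013).

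With FDX2 loss at 3% O2, 4.20% of all genes were called higher and 3.11% lower (10.6% and 8.66% with GC correction). MMP1 (0.66), CTSK (0.75) and FAP (1.89) were the 3 of 6 degrading genes called higher, with none lower (4 and 0 with GC correction and without the 3 libraries). The receptors ITGA10 (0.81), ITGA1 (0.36) and DDR2 (0.30) were higher too (3 and 0 with GC correction, 2 and 1 without the libraries). Of 18 modification genes only the prolyl 4-hydroxylase subunit P4HA1 was called, at -0.50 (edgeR adjusted p = 0.0021), against 2 higher and 4 lower with GC correction and 2 and 1 without the libraries. Crosslinking had 1 higher and 0 lower (LOX, 0.28), which became 4 and 3 with GC correction and 5 and 2 without the libraries. Export had 1 and 1 (1 and 4, then 1 and 3), including the collagen transcription factor CREB3L1 at 0.93, and fibril regulators had no call (none with GC correction, 3 higher without the libraries). Basement membrane partners had 3 and 0 (4 and 0, then 3 and 0), including the laminin chains LAMA3 (0.61) and LAMA4 (0.55), and the TGF-beta list had 2 and 0 (5 and 0, then 4 and 0).

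At 3% against 20% O2 in cells with Doxy, 1.63% of all genes were higher and 0.385% lower (5.18% and 2.31% with GC correction). The prolyl 4-hydroxylase subunit P4HA1 went from 58.8 to 143 CPM (1.28, edgeR adjusted p = 3.4e-06). P4HA2 (0.78) and PLOD2 (0.46) were also higher, as 3 of 18 modification genes with none lower (7 and 0 with GC correction, 6 and 0 without the 3 libraries). The subunits P4HA3 (-0.03) and P4HB (0.31) did not pass the test. LAMA4 (0.49) was the 1 basement membrane partner called (4 higher with GC correction, 3 without the libraries) and TGFBI (0.79) the 1 gene of the TGF-beta list (3, then 1). The other 5 lists had no call, and with GC correction they had 1 to 3 higher each and 1 lower in all, a degrading gene.

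At 3% against 20% O2 in cells wo Doxy, 13.9% of all genes were higher and 11.9% lower (17.2% and 15.9% with GC correction). Of 18 modification genes 9 were higher and 2 lower (8 and 2 with GC correction, 12 and 2 without the 3 libraries). P4HA1 (0.89), PLOD1 (0.86) and P4HA2 (0.73) were among those higher. Of 9 genes of propeptide removal and crosslinking 6 were higher and 1 lower (5 and 2, then 7 and 1), among them LOXL3 (0.81), the procollagen proteinase enhancer PCOLCE (0.68) and ADAMTS3 (0.57). MMP1 fell by 0.65 as the 1 degrading gene called (0 higher and 3 lower with GC correction, 1 and 2 without the libraries). The receptors ITGA1 (-0.56) and DDR2 (-0.41) were lower and none higher (0 and 4, then 0 and 2). Export had 2 and 2 (5 and 4, then 3 and 4), fibril regulators 1 and 0 (2 and 0 under both), basement membrane partners 2 and 0 (3 and 2, then 4 and 0) and TGF-beta 2 and 2 (2 and 4, then 3 and 4).

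For the difference in response, 3.21% of all genes were higher and 4.08% lower (8.73% and 9.58% with GC correction). The crosslinking genes ADAMTS3 (0.46) and LOX (0.39) were higher and none lower (5 and 0 with GC correction and without the 3 libraries). The modification genes P4HA1 and PLOD2 were lower and none higher (3 higher and 5 lower, then 3 and 4). The receptors ITGA1 and DDR2 (0 and 3, then 0 and 2) and the degrading genes MMP1 and CTSK (0 and 4, then 0 and 3) were lower as well, as were the export gene KLHL12 (1 and 3, then 0 and 2) and the laminin chain LAMA4 (0 and 3, then 2 and 1). In the TGF-beta list CCN2 was higher (0.54), and 2 genes were lower (1 and 3 under both), SKIL (-0.67) among them. Fibril regulators had no call (1 higher with GC correction, 1 lower without the libraries).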

How the data were processed

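Poly(A) RNA of 12 libraries was sequenced paired-end on a DNBSEQ-T7. Per the labels, the authors aligned reads with STAR to GRCh38 and counted them per gene with featureCounts, and the deposited values are raw counts with no normalization. Versions, annotation release, strand setting and treatment of multi-mapping reads are not given in the sources used here. All 58735 identifiers matched GENCODE 29.

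Counts were fitted with edgeR 4.0.16 (R 4.3.3, quasi-likelihood test, limma 3.58.1, filterByExpr with a minimum count of 10 and a minimum total of 15, TMM, 4 condition means over the 12 libraries, 8 residual degrees of freedom). Of 32966 genes with a count, 16891 were tested in 5 comparisons, and p-values were adjusted over all of them (Benjamini-Hochberg, threshold 0.05). Standard errors (SE) come from the same model. Levels are CPM on the TMM-scaled library size, and CPM per kilobase of merged exon where genes are compared. Library totals of 24958386 to 34313637 counts set the precision, and below about 1 CPM counting error is large. No 2 replicates agreed within sampling noise.

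Alternatives were DESeq2 1.42.0 (size factors, Wald test), no filter, at least 10 counts in every library, at least 2-fold, GC correction, the replicate number as a block, fits of only the conditions compared, and leaving out each library. Leaving out 3 libraries together, the block with GC correction in fits of only the conditions compared, and ratios with the longest transcript were chosen after seeing the data. Same-numbered libraries correlated in their deviations from the condition means in every pair of 20% O2 wo Doxy and 3% O2 wo Doxy (r from 0.247 to 0.363), a pattern that no further combination of conditions showed for its 3 pairs. The scripts were tested on simulated data. The members and gene lists were chosen with earlier results of these data known. Members described in full were the 3 with the highest level per kilobase and, per comparison, at most 5 called higher and 5 called lower with the largest changes and a mean of at least 1 CPM in any condition, and the 3 largest changes were named per list. The COL1A1, COL5A2, COL6A1 and COL9A3 promoters had no window in the RefSeq table. Results of some genes of the lists are not reported here.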

Additional observations from a re-analysis of the deposited data

Results flagged for a closer look

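The response to FDX2 loss differed between 3% and 20% O2 by edgeR's interaction test for 3 collagen chain genes. The difference was 0.91 (log2) for COL17A1, 1.87 for COL9A2 and 2.37 for COL1A2 (edgeR adjusted p = 0.024, 0.032 and 0.010). COL17A1 was lower wo Doxy in each of the 3 libraries at 20% O2, where no libraries overlapped, and the libraries overlapped at 3% O2. COL9A2 and COL1A2 are below 1 CPM, with 10 to 27 and 4 to 23 counts per library. Leaving out 1 of the 12 libraries in turn lost the call of COL17A1 in 5 fits, of COL9A2 in 9 and of COL1A2 in none.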

How the results depend on the processing

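Of 575 alternative values of the 32 called log2 fold changes, 446 stayed past the threshold, 129 did not, and none changed sign. The 2-fold threshold took away 21 of the 32 calls, and GC correction and leaving out the 3 libraries 4 each. For FDX2 loss at 20% O2, 6 higher became 1 at 2-fold or more (5 to 6 with a library left out). They became 7 by DESeq2's Wald test, 8 with GC correction and 7 without the 3 libraries of high GC values. The 5 lower became 8 in each of these fits, without a filter and in the fit of only the conditions compared. They became 2 at 2-fold (3 to 9 with a library left out). For FDX2 loss at 3% O2, 3 higher became 1 without a filter, 5 by the Wald test, 7 with GC correction, 0 in the fit of only the conditions compared, 7 without the 3 libraries and 1 at 2-fold (0 to 5 with a library left out), and 0 lower became 2 with GC correction. For 3% against 20% O2 with Doxy, 1 higher became 7 with GC correction, 0 in the fit of only the conditions compared, 2 without the 3 libraries and 0 at 2-fold (0 to 1). Without Doxy, 12 higher became 10 with GC correction, 13 without the 3 libraries and 3 at 2-fold (7 to 12). The 2 lower became 4 with GC correction and 3 without the 3 libraries (1 to 2). For the difference of responses, 3 higher became 2 by the Wald test and 6 without the 3 libraries (1 to 5). The 0 lower became 3 with GC correction and 2 without the 3 libraries (0 to 1). Not every fit is listed for each direction here and below, and the causes of these shifts were not tested. Shares of all genes called were determined only for the edgeR fit described above and for that with GC correction.

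The replicate number as a block gave 3 lower for FDX2 loss at 20% O2, 1 higher at 3% O2, 1 lower for oxygen without Doxy and 1 higher for the difference. With GC correction the block gave 8 lower at 20% O2, 5 higher and 2 lower at 3% O2, 6 higher for oxygen with Doxy, 4 lower without Doxy and 2 lower for the difference. In fits of only the conditions compared the block gave 8 lower at 20% O2, 0 higher at 3% O2 and 0 higher for oxygen with Doxy, and with GC correction 10 higher and 8 lower, 1 higher and 2 higher. Outside the conditions wo Doxy, no combination of conditions showed same-numbered libraries deviating together in every pair. The 3 libraries of high GC values carry different numbers and correlated with each other (r from 0.765 to 0.818). This check could therefore have missed a pairing. Depth limits the genes below 1 CPM, where a few counts decide a fold change.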
